A study of Mus musculus with 4 samples.

Results

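Chemokine transcripts were followed in single group 2 innate lymphoid cells (ILC2) from mouse pancreas. The genes were chosen by name, with earlier results of these data known: Cxcl2, Cxcl3, Ccl1, Ccl3, Ccl4, Ccl5 and Xcl1. Of these 7 genes, 5 had a row on plate 1, among 11352 gene rows, and Ccl3 and Ccl4 were not analysed here. The cells were C57BL6J mouse pancreatic ILC2 that carried KIKR, a fluorescent protein that changes from green to red under violet light. A sort record assigned each well to photoconverted (Cell_Red), non-photoconverted (Cell_Green) or empty. The labels give no animal, age, feeding state or number of pooled animals, and red fluorescence marks earlier exposure to light, not where a cell is at the time of the sort. The series has 4 plates, of which plate 1 was used here. Each colour is thus a single sample, and no p-values are given.

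Chemokines are small secreted proteins that attract leukocytes through receptors coupled to G proteins. They are classed by the spacing of their first cysteines into CXC, CC and C types. Cxcl2 and Cxcl3 are CXC ligands of Cxcr2, the receptor that draws neutrophils, and Ccl1 is the ligand of Ccr8. Ccl5 binds Ccr1 and Ccr3, among others, and is best known from T cells and NK cells, and Xcl1 is a C-type ligand of Xcr1 on cross-presenting dendritic cells. ILC2 are best known for interleukin-5, interleukin-13 and amphiregulin.

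Cxcl2 and Cxcl3 are paralogs of 1 cluster on the forward strand of chromosome 5, with Cxcl1 between them, and their promoters are shown because Cxcl3 was mostly found in cells with Cxcl2. Cxcl2 lies at chr5:90903871-90905938 and Cxcl3 at chr5:90786103-90789600 (GENCODE M21, mm10). The windows below, from RefSeq on GRCm38.p6, run from 250 bases before to 50 bases after the start of transcription, at chr5:90903649-90903948 (Cxcl2) and chr5:90785851-90786150 (Cxcl3). Capitals mark the match to a binding motif of NF-kB, spelled GGGA, then any base, then TTTCC, and searched on both strands.
Cxcl2: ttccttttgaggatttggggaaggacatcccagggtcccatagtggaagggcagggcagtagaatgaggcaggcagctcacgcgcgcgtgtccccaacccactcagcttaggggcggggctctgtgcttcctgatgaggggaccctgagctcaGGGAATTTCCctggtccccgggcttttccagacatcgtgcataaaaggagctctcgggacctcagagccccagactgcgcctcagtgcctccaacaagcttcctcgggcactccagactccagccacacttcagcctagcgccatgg
Cxcl3: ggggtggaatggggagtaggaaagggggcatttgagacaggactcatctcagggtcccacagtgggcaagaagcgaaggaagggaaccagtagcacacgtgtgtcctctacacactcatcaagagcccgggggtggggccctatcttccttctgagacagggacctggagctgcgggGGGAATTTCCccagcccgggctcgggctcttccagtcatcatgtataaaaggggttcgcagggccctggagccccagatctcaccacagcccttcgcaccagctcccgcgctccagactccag
Each window held 1 match, with its first base 97 bases before the start in Cxcl2 and 73 bases before it in Cxcl3. The motif was present in 135 of 32851 promoter windows of this length (0.411%). The windows of Ccl1 and Xcl1 held no match. A match describes letters in a window and is not a measured site.

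On plate 1, 8 of 12 photoconverted and 98 of 151 non-photoconverted wells passed the filter on cells, and 221 wells were empty. The median number of gene reads was 540662 in photoconverted cells (56539 to 1677643), 187690 in non-photoconverted cells (17825 to 1274117) and 353 in empty wells. Median genes with a read were 2748.5, 1637 and 92. To match depth, the 5 non-photoconverted cells nearest in number of genes were taken for each photoconverted cell, and these are called depth-matched cells (29 distinct cells, median 2718.5 genes). At least 3 of 13 ILC2-like markers were detected in 8 of 8 photoconverted and 81 of 98 non-photoconverted cells. The cell in well F7, described below, held 3 ILC2-like and 2 T cell markers. Of the NK cell or ILC1 list and of the T cell list 4 markers each had a row, of which 1 in each (Prf1 and Cd3e) was detected in no cell. Of either list, 0 cells had 3 or more, which would have needed every marker detected at all. That count therefore cannot show that NK cells or T cells were absent. At least 1 NK cell or ILC1 marker was found in 0 of 8 photoconverted and 7 of 98 non-photoconverted cells, and at least 1 T cell marker in 2 of 8 and 10 of 98. Of the myeloid list, Cst3 and Cd68 had a row, and 6 of 8 and 29 of 98 cells had at least 1. Of the mast cell list, Kit and Hdc had a row, with 5 of 8 and 24 of 98. Of the B cell list, only Cd79b had a row, with 0 of 8 and 5 of 98. Of the stromal or endothelial list, only Pecam1 had a row, with 0 of 8 and 9 of 98. The 3 acinar markers with a row were detected in 0 of 106 cells.

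Of the 5 chemokines, Cxcl2 was found in the largest number of ILC2 (31 of 106 at 16 or more reads), and in a larger share of photoconverted than of non-photoconverted cells. The 8 photoconverted cells held 5553, 5377, 3865, 1717, 1174, 224, 8 and 3 reads, which comes to 10861, 9433, 2304, 4393, 20764, 363, 7.62 and 12.7 reads per 1000000 gene reads (CPM). Of these, 6 stood far above the 2 others. Red intensity was 8332 and 2202 in the 2 low cells and 2338 to 29626 in the 6 others, which overlap. The 98 non-photoconverted cells ranged from 0 to 21421 reads with a median of 5, and 14 of them held none. The 221 empty wells ranged from 0 to 60 reads with a median of 0. The ranges of the colours overlapped throughout.

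Low Cxcl2 values also occurred in wells without a cell. A single read or more was present in 8 of 8 photoconverted cells, 84 of 98 non-photoconverted cells (85.7%) and 48 of 221 empty wells (21.7%). A gene was therefore called detected at 16 reads or more, which 4 empty wells reached for Cxcl2 (1.81%, exact 95% binomial interval 0.495 to 4.57%), with 18, 32, 44 and 60 reads. Above that limit the non-photoconverted cells were spread widely, with 5 cells at 17 to 35 reads, 8 at 98 to 227, 5 at 321 to 947 and 7 at 1260 to 21421. Of 62388 Cxcl2 reads in all 106 cells, 1 non-photoconverted cell in well D3 held 34.3%, and the top 5 cells held 68.6%.

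**Figure D1:**
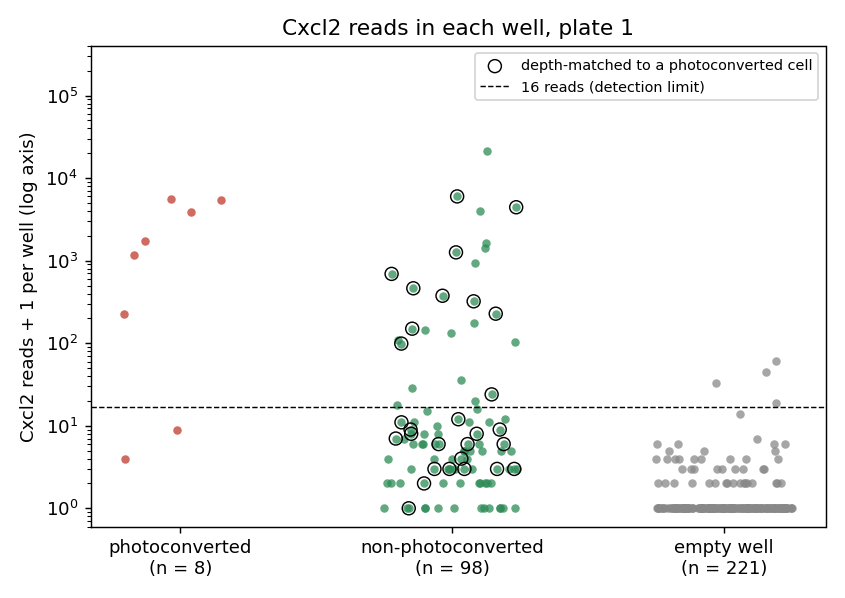
Cxcl2 reads plus 1 per well of plate 1 on a log axis, with 1 point per well for 8 photoconverted cells, 98 non-photoconverted cells and 221 empty wells. Rings mark the 29 non-photoconverted cells matched in depth, and the dashed line marks 16 reads. Of the photoconverted cells 6 lie above the line, and the highest well of all, at 21421 reads, is a non-photoconverted cell without a ring.

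The transcript reached 16 reads in 75% of photoconverted cells (6 of 8, exact 95% interval 34.9 to 96.8%), in 37.5% of depth-matched cells and in 25.5% of all non-photoconverted cells (25 of 98, interval 17.2 to 35.3%). The difference from depth-matched cells was 37.5 percentage points. Drawn down to 1000 gene reads per cell, the expected share with a read was 65.2% in photoconverted, 18.8% in depth-matched and 17.5% in all non-photoconverted cells. Among cells with the transcript, the median level was 6913 CPM in photoconverted and 989 CPM in non-photoconverted cells. The photoconverted range, 363 to 20764 CPM, lay within the non-photoconverted one, 32.2 to 43598 CPM. Summed reads were 17921 in photoconverted cells (exact Poisson 95% interval 17660 to 18185) and 44467 in non-photoconverted cells (44055 to 44882). These intervals cover counting error only, and amplified reads are not independent molecules.

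The mean level of Cxcl2 was 6017 CPM in photoconverted cells, 846 CPM in depth-matched cells and 1363 CPM in all non-photoconverted cells, a ratio of 7.11 over the depth-matched and of 4.41 over all non-photoconverted cells. The cell in well D3 was not among the depth-matched cells, and without it the mean over the other 97 non-photoconverted cells was 928 CPM. The log2 ratio of mean CPM plus 10 was 2.82 against depth-matched cells, and 2.09 without the photoconverted cell in well G3, which had 56539 gene reads. It was 3.47 without the one in well E9, and 1.90 with 10 nearest cells in place of 5. With detection at 4 reads in place of 16, the difference in share was 10 percentage points.

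Of 5833 genes detected in at least 5 cells, 9.74% were higher by 25 percentage points or more in photoconverted than in depth-matched cells, and 3.89% were lower by as much. Only Cxcl2 and Cxcl3 of the 5 measured chemokines were among the genes compared, and Cxcl2 was past that limit. The median difference over all 5833 genes was 2.5 percentage points. By mean CPM plus 10, 13.4% of the genes were at least 2-fold higher against depth-matched cells, Cxcl2 and Cxcl3 among them, and 30.3% were at least 2-fold lower. The difference of Cxcl2 rests on 8 cells of 1 plate, with no replicate to set it against.

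**Figure D2:**
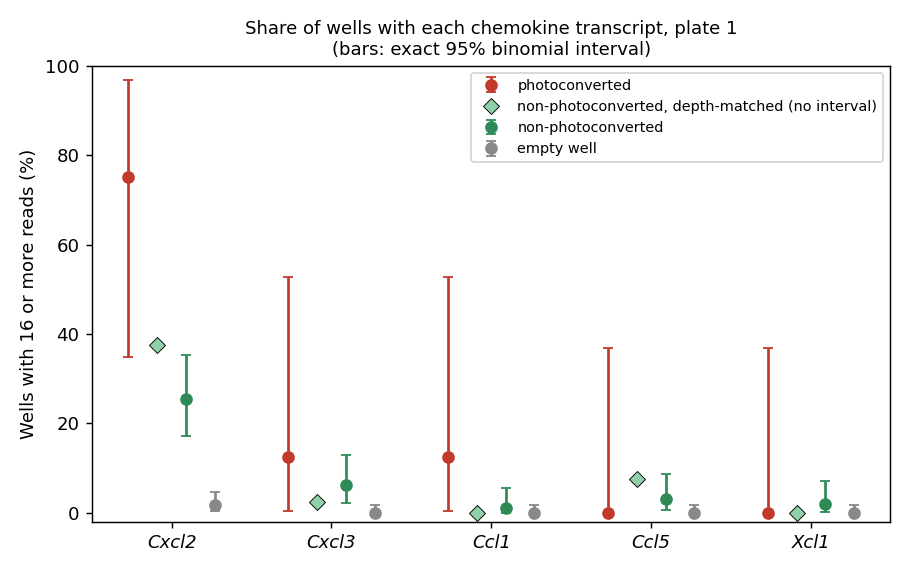
Share of wells with 16 or more reads of each chemokine, in percent, for 8 photoconverted cells, the depth-matched cells (diamonds, weighted, without interval), 98 non-photoconverted cells and 221 empty wells. Bars are exact 95% binomial intervals. For Cxcl2 the interval is 34.9 to 96.8% in photoconverted and 17.2 to 35.3% in non-photoconverted cells, and these overlap at their edges. For the other 4 genes the intervals of the 2 colours overlap widely. The intervals cover the draw of cells on 1 plate, not the spread between plates or animals.

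Detection of Cxcl2 moved with depth in non-photoconverted cells. Split by number of genes into a lowest, a middle and a highest bin, it was detected in 12.1% (4 of 33), 21.2% (7 of 33) and 43.8% (14 of 32). Drawn down to 1000 reads, the expected shares were 12.8%, 13.8% and 26.0%. Position on the plate was checked as well. Of non-photoconverted cells under 1000 Cxcl2 reads, 19.0% of the 42 next to a well with 1000 or more reads had the transcript, and 20.4% of the 49 elsewhere. None of the 10 empty wells beside such a well reached 16 reads. Around well D3 itself, 4 of 7 cells had the transcript (57.1%, 18.4 to 90.1%), against 26.5% of the other 98 cells, and whether reads passed between these wells was not tested. Among the wells that failed the filter, 1 of 4 photoconverted and 4 of 53 non-photoconverted wells had Cxcl2.

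Cxcl3, a neutrophil chemokine of the same cluster, was found in few cells of either colour and mostly beside Cxcl2. It was detected in 1 of 8 photoconverted cells (12.5%, exact 95% interval 0.316 to 52.7%). The share was 2.5% in depth-matched cells, which rests on 1 distinct cell, and 6 of 98 in non-photoconverted ones (6.12%, 2.28 to 12.9%). Empty wells had it in 0 of 221, which allows a share of up to 1.36%. The photoconverted cell held 571 reads, and the 6 non-photoconverted cells held 977, 821, 175, 125, 99 and 34. The photoconverted value lies inside the non-photoconverted range. Mean levels were 125 CPM in photoconverted, 31.9 CPM in depth-matched and 135 CPM in all non-photoconverted cells, so the log2 ratio of mean CPM plus 10 was 1.69 against the depth-matched cells and -0.10 against all. Without the 1 photoconverted cell that held it (well D10), the log2 ratio was -0.023.

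Of the 7 cells with Cxcl3, 5 also had Cxcl2 (71.4% of the Cxcl3 cells and 16.1% of the 31 Cxcl2 cells). The paired reads of Cxcl3 and Cxcl2 were 571 and 5377 in the photoconverted cell. In non-photoconverted cells they were 34 and 21421, 821 and 6009, 977 and 1617, 99 and 142, 125 and 3, and 175 and 1. The ratio of Cxcl3 to Cxcl2 reads thus spanned 0.00159 to 175, and of the 12 cells with 1000 or more Cxcl2 reads, 8 held 0 reads of Cxcl3. In the last 400 bases of their transcripts, which 3' end sequencing reads, the longest identical run between Cxcl2 and Cxcl3 was 16 bases, with 68.0% of aligned bases identical. How the authors' counting treated reads that fit several genes is not given in the sources used here. Among non-photoconverted cells, Cxcl3 was detected in 4 of the 25 Cxcl2-positive cells (16%). Its share was 0.8% in depth-matched Cxcl2-negative cells and 2.74% in all 73 Cxcl2-negative cells.

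**Figure D3:**
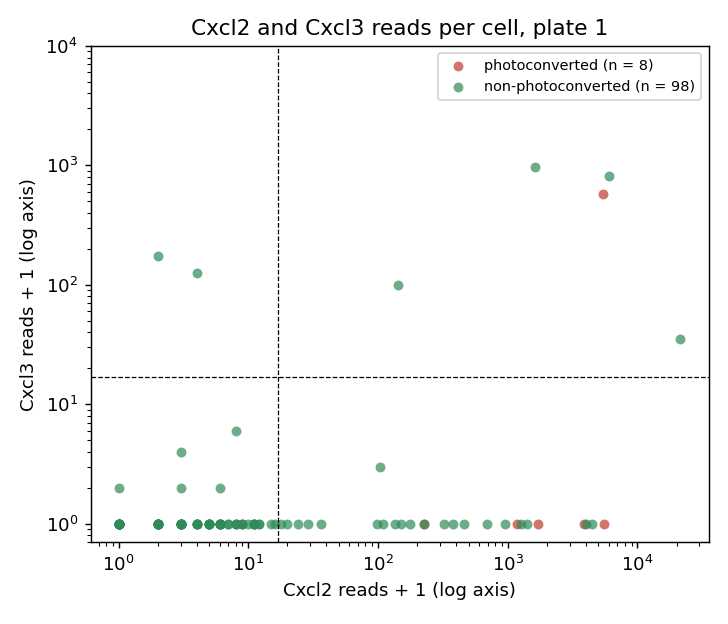
Reads plus 1 of Cxcl3 against Cxcl2 in each cell of plate 1, on log axes, for 8 photoconverted and 98 non-photoconverted cells, with dashed lines at 16 reads. The upper right field holds 5 cells with both transcripts, and 2 non-photoconverted cells in the upper left have 125 and 175 Cxcl3 reads with 3 and 1 Cxcl2 reads.

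Ccl1, the ligand of Ccr8 (chromosome 11, 82176657 to 82305690, reverse strand), was present at 16 or more reads in 1 cell of each colour. The photoconverted cell in well B18 held 404 Ccl1 reads (654 CPM), and the non-photoconverted cell in well G5 held 47 (88.5 CPM). The shares were 12.5% (0.316 to 52.7%) and 1.02% (0.0258 to 5.55%), with 0 of 221 empty wells. In the remaining cells Ccl1 stood at 4 reads or fewer. Both Ccl1 cells also had Cxcl2, at 224 and 947 reads. The cell in B18 held 9 of 13 ILC2-like markers, and 89 reads of the T cell-like markers, with Cd3g detected. The cell in G5 held 6 ILC2-like markers and Nkg7, with 30 reads of the NK cell or ILC1 list. Kit was detected in both, with 530 reads of the mast cell or basophil list in B18 and 634 in G5, as was Cst3, with 25 and 115 reads of the myeloid list.

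Ccl5 (chromosome 11, 83525778 to 83530518, reverse strand) stayed under 16 reads in all 8 photoconverted cells, a count of 0 that allows up to 37.5%. It was detected in 3 of 98 non-photoconverted cells (3.06%, 0.636 to 8.69%), with 179, 84 and 28 reads. The share in depth-matched cells was 7.5%, which rests on 2 distinct cells, with the one in G10 counted 2 times. With detection at 4 reads the difference from depth-matched cells was 5 percentage points, against -7.5 at 16 reads, a change of sign through the photoconverted cell in B18 with 7 reads. Of these 3 cells 1 also had Cxcl2 and Ccl1: the cell in G5, with 84 Ccl5, 947 Cxcl2 and 47 Ccl1 reads, was the only one of 106 with 3 of the chemokines. The 3 Ccl5 cells held 8, 7 and 6 of the 13 ILC2-like markers and no T cell-like marker, and Nkg7, a cytotoxic granule gene of NK cells, was detected in 1 of them, at G5. Each of the 3 also had a gene of the mast cell or basophil list, Kit at F4 and G5 and Hdc at G10. Reads summed over that list were 117, 634 and 41 at F4, G5 and G10. G5 also had Cst3, with 115 reads of the myeloid list.

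Xcl1 (chromosome 1, 164931644 to 164935527, reverse strand) was found in none of the 8 photoconverted cells, with the same limit of 37.5%, and in 2 of 98 non-photoconverted cells (2.04%, 0.248 to 7.18%). These held 149 and 18 reads, and neither had Cxcl2 above 5 reads. The cell with 149 reads, in well B23, held 5 ILC2-like markers, among them Gata3 and Il1rl1, with Nkg7 and Cst3. The cell with 18 reads, in well F7, held 3 ILC2-like markers (Icos, Il2ra and Thy1), which T cells also express, and had Cd3d and Cd3g, with 435 reads of T cell-like markers. Gata3 and Il1rl1 were below 16 reads there. These markers do not set that cell apart from a T cell.

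Counted per cell, 6 of 8 photoconverted cells had at least 1 of the 5 chemokines (75%, 34.9 to 96.8%), as did 45% of depth-matched cells and 31 of 98 non-photoconverted ones (31.6%, 22.6 to 41.8%). Empty wells had 4 of 221. Cells with 2 or more were 2 of 8 (25%, 3.19 to 65.1%), 2.5% (1 distinct cell) and 5 of 98 (5.10%, 1.68 to 11.5%), against 0 empty wells. Cxcl2 was one of the chemokines in each of these 7 cells. The single pair of 2 chemokines other than Cxcl2 was Ccl1 with Ccl5, in the cell at G5. The difference in co-detection between photoconverted and depth-matched cells, 22.5 percentage points, was 11.4 without the photoconverted cell in B18 and 14.3 without the one in D10. Among non-photoconverted cells, those with 2 or more were 0 of 33, 2 of 33 and 3 of 32 in the lowest, middle and highest bin by number of genes.

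Genes of the effector cytokine list and of the NF-kB and activation list were set against Cxcl2 within the non-photoconverted cells, where the 25 Cxcl2-positive cells (median 2451 genes) were matched to Cxcl2-negative cells of like depth (54 distinct cells, median 2428 genes). NF-kB is the transcription factor family that induces many chemokine genes. Of the 18 genes of that list 16 were detected in at least 5 of these cells and compared. By share of cells, 15 of the 16 were higher beside Cxcl2, 5 of them by 20 percentage points or more, with a median difference of 9.6 points. Over all 5331 genes compared, 50.4% were higher, 2.59% were higher by 20 points or more, 2.25% were lower by as much, and the median difference was 0.8 points. By mean CPM the same 16 genes split evenly, with 8 higher and 8 lower in Cxcl2-positive cells, and 44.6% of all 5331 genes were higher. No test was made of these counts, and genes of 1 cell are not independent of each other.

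Of the 3 most abundant genes of that list, Tnfaip3 (A20), an inhibitor of NF-kB signalling, was detected in 96% of Cxcl2-positive and 85.6% of matched negative cells. Zfp36, which destabilises cytokine transcripts, had the same shares, and Junb, an AP-1 subunit, was detected in 96% and 91.2%. The widest differences, picked after their values were seen, were at Dusp1, a phosphatase of MAP kinases (92% and 62.4%), Nfkb2, the p100 subunit of NF-kB (48% and 22.4%), and Nfkbid, a nuclear NF-kB regulator (72% and 48%). Nfkb2 averaged 524 CPM in Cxcl2-positive and 157 CPM in matched negative cells, whereas Tnfaip3 averaged 4613 and 5973 CPM.

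Of 7 effector cytokines compared, 6 had the larger share in Cxcl2-positive cells. Their median difference was 11.2 percentage points, against 0.8 over all 5331 genes compared, and 2 were past 20 points. By share, 50.4% of all genes compared were higher, and 2.59% were higher by 20 points or more. By mean CPM, 7 of the 7 cytokines and 44.6% of all genes compared were higher. Areg (amphiregulin) was detected in 88% of Cxcl2-positive and 67.2% of matched negative cells. Il5, which drives eosinophils, was detected in 52% and 31.2%, and Calca, which encodes the neuropeptide CGRP, in 56% and 37.6%. Il13 was detected in 12% and 15.2%, with mean levels of 113 and 51.1 CPM. Markers of other cells beside Cxcl2 were mixed: Pecam1, an endothelial gene also found on leukocytes, was detected in 20% and 2.4%, Hdc, a mast cell and basophil gene, in 20% and 3.2%, Cst3 in 40% and 41.6%, and Kit in 24% and 24%. At least 1 NK cell or ILC1 marker was found in 4 of 25 Cxcl2-positive cells (16%) and in 3 of all 73 Cxcl2-negative cells (4.11%), not matched in depth. The summed level of these markers reached 5280 CPM in a Cxcl2-positive cell and at most 369 CPM in the negative cells. T cell markers were found in 2 of 25 (8%) and 8 of 73 (11.0%). The part of all these markers in the result was not tested.

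**Figure D4:**
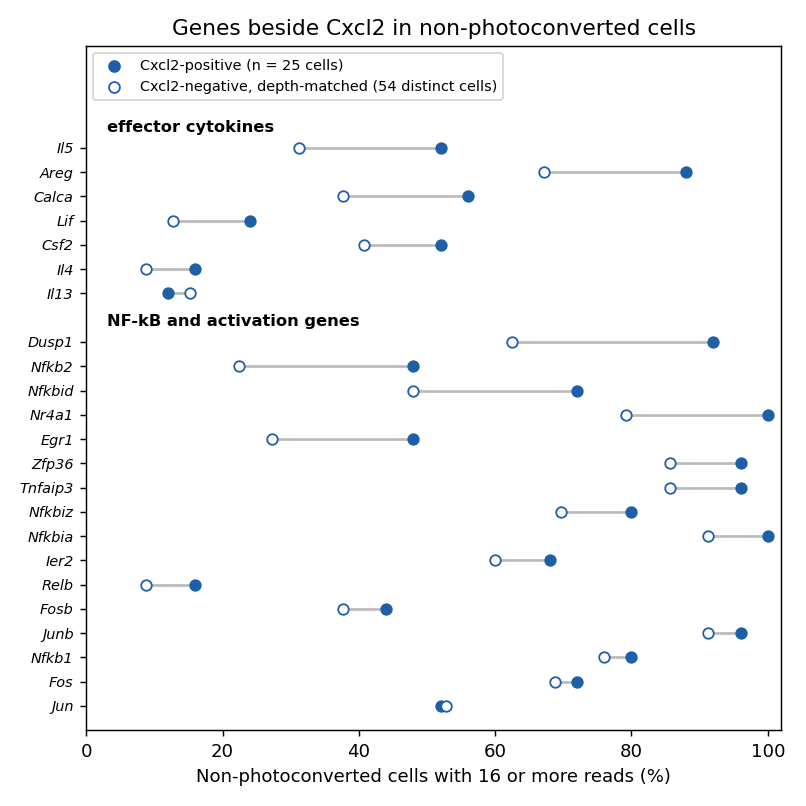
Share of non-photoconverted cells with 16 or more reads of each gene, in percent, in 25 Cxcl2-positive cells (filled) and in depth-matched Cxcl2-negative cells (open, 54 distinct cells). The filled point lies to the right for 6 of 7 effector cytokines, with Il13 as the exception, and for 15 of 16 NF-kB and activation genes, with Jun as the exception. By mean CPM, which is not plotted, these 16 split into 8 higher and 8 lower. Over all 5331 genes compared, 50.4% were higher by share and 44.6% by mean CPM.

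No gene followed Cxcl2 closely over the 98 non-photoconverted cells. The 3 genes of 2881 with the highest rank correlation of CPM with Cxcl2 were Pcyt2 (Spearman rho 0.36), Commd4 (0.32) and Btaf1 (0.31), against a median rho of 0.02 over these genes. The points share library and depth. The CPM of Pcyt2, Commd4 and Btaf1 correlated with the number of genes in the cell at 0.26, 0.21 and 0.30, and that of Cxcl2 at 0.06. In the highest bin by number of genes (32 cells), the rho of these 3 genes with Cxcl2 was 0.45, 0.47 and 0.48. The part of depth in these values was not tested. The rho values over all 98 cells are weak, and all come from sparse counts and are given as a description.

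The other chemokine ligands were measured in part: 12 of 38 named ligand genes had a row, 7 were detected in at least 1 cell and 3 in at least 5. The one besides Cxcl2 and Cxcl3 was Cxcl10, an interferon-induced ligand of Cxcr3 that attracts T cells. Photoconverted cells had it in 0 of 8, which allows up to 37.5%. Its share was 17.5% in depth-matched cells, where 1 cell can be counted more than 1 time. It was detected in 7 of 98 non-photoconverted cells (7.14%, 2.92 to 14.2%), with up to 1203 reads. Cxcl1, another Cxcr2 ligand on chromosome 5, was detected in 0 of 8 photoconverted cells, with the same limit, and in 4 of 98 non-photoconverted cells. In Cxcl2-positive and matched negative non-photoconverted cells, Cxcl10 stood at 8% and 8.8%.

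Of the receptors of the chemokines, those described here were detected in few of the ILC2. Cxcr2, which binds Cxcl2 and Cxcl3, was detected in 1 of 8 photoconverted and 5 of 98 non-photoconverted cells (5.10%, 1.68 to 11.5%), with no more than 60 reads, and in 1 empty well. Among non-photoconverted cells, Cxcr2 was detected in 4 of 25 Cxcl2-positive cells (16%), in 0.8% of matched negative cells and in 1.37% of all 73 negative cells. The matched difference of 15.2 percentage points rests on these few cells. Over all 5331 genes compared the median difference was 0.8 points, and 2.59% were higher by 20 points or more. Ccr8, the receptor of Ccl1, was detected in 0 of 8, which allows up to 37.5%, and in 6 of 98 (6.12%, 2.28 to 12.9%). Its share in depth-matched cells was 12.5%. These counts depend on the limit of 16 reads: a single read or more of Ccr8 was present in 5 of 8 and 15 of 98 cells. For Cxcr2 this was 5 of 8 and 26 of 98. Ccr3 and Xcr1 were detected in 0 of 8 and 0 of 98, with 8 reads of Ccr3 at most and no read of Xcr1 in a cell.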

How the data were processed

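Per the labels, ILC2 were sorted into plates of 384 wells for SORT-seq, with libraries of CEL-seq2 type. The authors deposited raw read counts per gene and well, which are not counts of molecular identifiers, and a sort record with colour and red fluorescence intensity, deposited in arbitrary units and used only to list wells. The tools named are STAR, STARsolo and edgeR and the build is mm10, per the submitters' processing notes, with no version or role. Plates 2 to 4 were not used here.

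Cells needed 500 genes with a read and under 25% mitochondrial reads. The 78 spike-in rows were left out of gene reads. Detection was 16 reads or more, matching used the 5 nearest cells in log number of genes, and draw-down to 1000 reads used the exact expected share (0 cells fell below). Intervals are exact Clopper-Pearson at 95%, and a count of 0 allows 3 counts. Log2 ratios and 2-fold limits are of mean CPM plus 10, and the Cxcl2 ratios of 7.11 and 4.41 are of mean CPM alone. Gene comparisons needed detection in 5 cells. With 1 sample per colour no test was run; the script was tested on simulated data. No doublet caller was run. Analysis used Python 3.11.15, pandas 2.3.3 and scipy 1.17.1.

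The members and lists were chosen with earlier results of these data known. Named by rule were the members, other ligands detected in 5 cells, receptors with a row (1 of them is not reported here), the 3 most abundant genes of the cytokine and NF-kB lists, and the 3 genes most like Cxcl2 (detected in 10 cells). Other genes were named after their values were seen.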

Additional observations from a re-analysis of the deposited data

How the results depend on the processing

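Photoconverted cells had the larger share with at least 1 chemokine, with 2 or more and with Cxcl2 under each alternative run. Leaving out each photoconverted cell gave 22.9 to 40.0 percentage points over depth-matched cells for at least 1, 11.4 to 25.7 for 2 or more and 31.4 to 48.6 for Cxcl2. Over the other alternatives the ranges were wider, with at least 1 at 10 points (detection at 4 reads) to 48.5, 2 or more at 7.96 (drawn down to 1000 reads) to 25.7, and Cxcl2 at 10 (4 reads) to 50.3. The Ccl5 difference of -7.5 points was 5 at 4 reads. The share of non-photoconverted cells with at least 1 chemokine was 59.2% with detection at 4 reads and 20.6% drawn down to 1000 reads, and that with Cxcl2 was 57.1% at 4 reads. The log2 ratio of Cxcl2 levels, 2.82, was 2.09 with at least 1000 genes, 1.90 with 10 nearest cells, 1.93 with matching by reads and 2.13 with no matching, and 2.09 to 3.47 when photoconverted cells were left out in turn. That of Cxcl3, 1.69, was -0.10 with no matching, also with the cell of most Cxcl2 reads left out, and -0.023 to 1.72 when cells were left out. The counts of 15 NF-kB and 6 cytokine genes with larger shares beside Cxcl2 were 15 to 16 and 5 to 6 in 3 alternatives chosen after seeing the data. Matching changes which cells are compared, and the cause of these shifts was not tested further. No paired analysis was possible because each colour is 1 sample, and no plate could be left out because 1 plate was used. Depth limits the rarer genes: 0 of 8 cells allows up to 37.5%.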
